A study of Mus musculus with 12 samples.

Results

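The 9 genes described here encode the clot protein fibrinogen and the enzyme system that dissolves it. They are the fibrinogen chain genes Fga, Fgb and Fgg, plasminogen (Plg), the plasminogen activators Plat and Plau, the receptor gene Plaur, and the inhibitors Serpinf2 and Cpb2. They were chosen by name, not by any measured value, and all 9 were found among the 55414 Ensembl genes of the deposited count table. All 9 were also among the 14919 genes that passed the filter on low counts.

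RNA was sequenced from primary hepatocytes of mouse liver. The groups were Hnf4a KO cells with MJ041, Hnf4a KO cells with DMSO vehicle, WT cells with MJ041, and WT cells with DMSO vehicle, with 3 libraries each and 12 in all. MJ041 is described by the series title as a candidate ligand compound and is known here only by this code. The labels give no dose, no duration of treatment, no age of the animals and no method of gene deletion, and they do not say whether replicates came from separate animals, so p-values measure only the spread between these libraries.

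Fibrinogen is made by hepatocytes as a disulfide-linked protein of alpha, beta and gamma chains, secreted into plasma and cut by thrombin into fibrin, which polymerises into the clot. Plasminogen, also a hepatocyte product, is converted to the fibrin-cutting protease plasmin by tissue-type plasminogen activator (Plat) or by urokinase (Plau), which acts while bound to its receptor (Plaur) on the cell surface. Antiplasmin (Serpinf2) inactivates plasmin, and the carboxypeptidase encoded by Cpb2 trims the lysines of fibrin to which plasminogen binds. HNF4A is a nuclear receptor that maintains the expression of many secreted liver proteins, and fibrinogen genes are also classic targets of interleukin-6 during the acute-phase response.

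Promoter sequences of the fibrinogen chains and of antiplasmin are shown first. All 4 are hepatocyte products, and antiplasmin transcripts passed as lower in KO cells while those of the fibrinogen chains did not pass. RefSeq promoter sequence (GRCm38.p6) was found for 6 of the 9 genes; the counts themselves were made on mm39, so these positions are not those of the count table. Each line gives the 250 bases before the transcription start on the gene's own strand. The windows are chr3:83025903-83026152 (plus strand) for Fga, chr3:83049864-83050113 (minus strand) for Fgb, chr3:83007474-83007723 (plus strand) for Fgg and chr11:75439502-75439751 (minus strand) for Serpinf2. Capitals mark matches to any of 5 short motifs searched on both strands.
Fga: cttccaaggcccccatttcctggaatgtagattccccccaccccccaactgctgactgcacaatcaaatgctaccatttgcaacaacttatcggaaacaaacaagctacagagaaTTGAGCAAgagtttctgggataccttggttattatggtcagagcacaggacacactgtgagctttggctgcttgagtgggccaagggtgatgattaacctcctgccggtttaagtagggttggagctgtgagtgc
Fgb: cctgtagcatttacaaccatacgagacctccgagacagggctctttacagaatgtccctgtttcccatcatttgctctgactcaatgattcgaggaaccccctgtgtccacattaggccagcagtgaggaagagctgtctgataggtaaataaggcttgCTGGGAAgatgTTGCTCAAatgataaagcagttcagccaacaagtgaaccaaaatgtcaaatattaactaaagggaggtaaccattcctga
Fgg: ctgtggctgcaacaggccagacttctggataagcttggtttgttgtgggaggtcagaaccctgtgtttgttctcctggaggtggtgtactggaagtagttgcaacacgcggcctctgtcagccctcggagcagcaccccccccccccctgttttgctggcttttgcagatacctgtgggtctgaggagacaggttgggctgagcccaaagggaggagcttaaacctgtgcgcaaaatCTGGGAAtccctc
Serpinf2: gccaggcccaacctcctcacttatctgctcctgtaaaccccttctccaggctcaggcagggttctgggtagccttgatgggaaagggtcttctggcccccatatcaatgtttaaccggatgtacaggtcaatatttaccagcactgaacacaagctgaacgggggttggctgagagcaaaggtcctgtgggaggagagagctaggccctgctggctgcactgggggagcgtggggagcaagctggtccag

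The motifs were an HNF4 half-site (AGTCCA), a C/EBP motif (TTGCNNAA), the CCAAT box (CCAAT), the TATA box (TATAAA) and an interleukin-6 response element (CTGGGAA). Fga held a C/EBP motif at 128 to 135 bases before the start. Fgb held a C/EBP motif at 73 to 80 bases and an interleukin-6 response element at 85 to 91 bases, which did not overlap. Fgg held only the interleukin-6 element, at 7 to 13 bases, and the Serpinf2 window held no match. Of the windows not printed, that of Plaur held a C/EBP motif at 52 to 59 bases and that of Cpb2 held no match. Only these exact letters were searched, so a site with other letters would not be marked. Of 32851 mouse promoter windows of the same length, 11.5% held the HNF4 half-site, 9.56% the C/EBP motif, 33.8% the CCAAT box, 12.4% the TATA box and 9.10% the interleukin-6 element. A match is a match of letters only.

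The libraries held 16740761 to 17902832 counts. Levels are given in CPM, the count of a gene relative to the scaled total of its library. Hnf4a, the gene named in the KO label, had 59.9, 76.0 and 66.7 CPM in KO cells with MJ041 and 61.1, 67.8 and 66.4 CPM in KO cells with vehicle, against 166, 178 and 142 CPM in WT cells with MJ041 and 121, 137 and 112 CPM in WT cells with vehicle. Every KO library lay below every WT library, and counts remained on the gene in KO cells. Transcripts of hepatocytes were present in every library, with albumin at 1.83% to 2.05% of counts in KO and 4.41% to 5.30% in WT. Of 6 tested hepatocyte markers, 4 fell and 1 rose in KO cells with vehicle, and 5 fell and 1 rose with MJ041. These were 83.3% and 100% of them, beside 54.5% and 54.4% of all tested genes. Markers of Kupffer cells, endothelial cells and stellate cells were also detected, and they were lowest in replicates 1 and 2 of WT with MJ041. Cholangiocyte markers had a mean log2 CPM of 3.86 to 4.39 in KO libraries and 2.33 to 3.08 in WT libraries. Their summed CPM overlapped between genotypes, at 245 to 403 in KO and 287 to 520 in WT with vehicle. With MJ041 the sums were 190 to 408 in KO and 130 to 267 in WT. Of 5 tested, 2 passed as higher and 1 as lower in KO cells, with vehicle and with MJ041 alike. This was 60% of them, beside 54.5% and 54.4% of all tested genes. In bulk RNA, fewer cells of a type and less RNA per cell cannot be told apart.

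**Figure D1:**
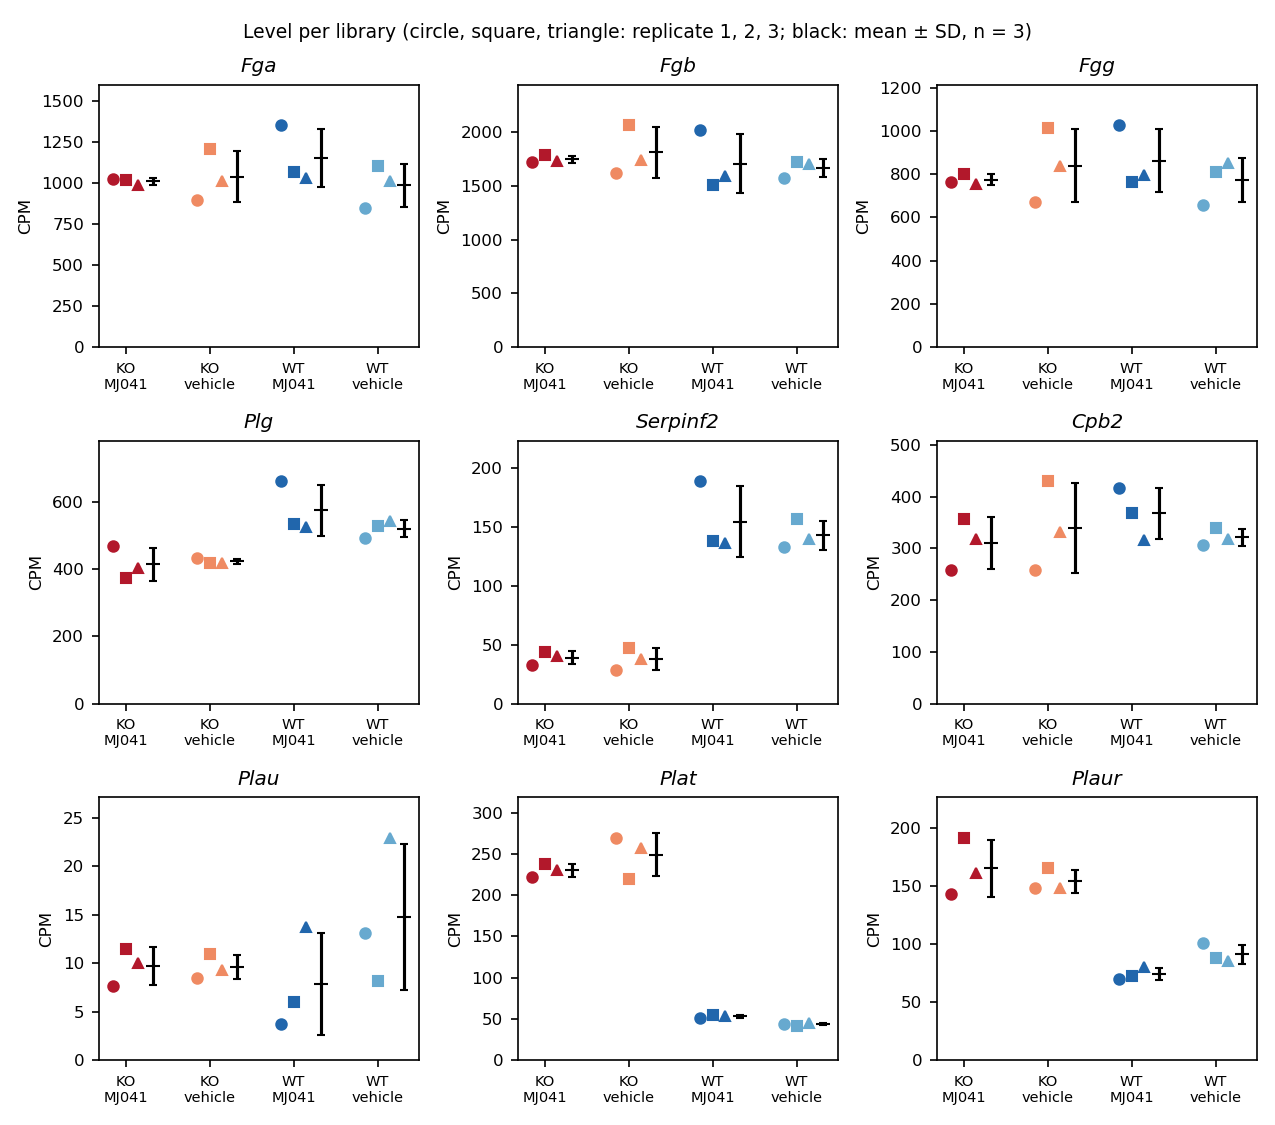
Level of each of the 9 genes in every library, in CPM on linear axes that start at 0, by group. Circles, squares and triangles are replicates 1, 2 and 3, and black bars are the mean ± SD (n = 3). Plat and Plaur lie higher and Serpinf2 and Plg lower in all KO libraries than in all WT libraries, while the fibrinogen chains and Cpb2 overlap between genotypes with vehicle.

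Per length of transcript the genes kept a similar order in all groups, led by the fibrinogen chains. Dividing CPM by the summed exon length of each gene in kilobases, taken from GENCODE M21, gave the levels in KO cells with vehicle as 475 ± 61.3 for Fgb, 401 ± 81.3 for Fgg, 344 ± 52.0 for Fga, 208 ± 53.2 for Cpb2 and 114 ± 2.15 for Plg (SD, n = 3). Below them in that group stood Plaur at 58.9 ± 3.82, Plat at 39.9 ± 4.20, Serpinf2 at 16.4 ± 4.11 and Plau at 4.04 ± 0.523 CPM per kilobase. Within this group only the neighbouring pairs Fgb and Fgg, and Fgg and Fga, overlapped between libraries.

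In WT cells with vehicle the same scale gave Fgb 437 ± 22.3, Fgg 369 ± 48.7, Fga 327 ± 43.0, Cpb2 197 ± 10.2 and Plg 140.4 ± 7.14 CPM per kilobase. There Serpinf2 came next at 61.5 ± 5.22, ahead of Plaur at 34.8 ± 3.12, Plat at 6.96 ± 0.221 and Plau at 6.23 ± 3.19 CPM per kilobase (SD, n = 3). Within this group the neighbouring pairs Fgg and Fga, and Plat (6.71 to 7.10) and Plau (3.43 to 9.70), overlapped between libraries. Antiplasmin transcripts thus ranked above those of Plat and Plaur in WT cells and below both in KO cells. With MJ041 the order was Plaur (63.1), Plat (36.9) and Serpinf2 (16.8) in KO cells, against Serpinf2 (66.5), Plaur (28.4) and Plat (8.48 CPM per kilobase) in WT cells.

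The first question was how loss of Hnf4a changed these genes. With vehicle 2 of the 9 genes rose in KO cells, Plat and Plaur, and 2 fell, Serpinf2 and Plg, while the 3 fibrinogen chains, Cpb2 and Plau did not pass the test. The same 4 genes passed in the same direction when KO and WT cells were compared with MJ041, in other libraries of the same fit. The share of the 9 genes that passed was 44.4% in each comparison. Among all tested genes 54.5% passed with vehicle, 27.5% as higher and 26.9% as lower in KO, and 54.4% passed with MJ041, 26.8% as higher and 27.6% as lower. The share of the 9 genes was thus below that of all tested genes, and it is no result about them. A gene was called when its adjusted p from edgeR's quasi-likelihood test, corrected by Benjamini-Hochberg over all tested genes, was below 0.05. The median log2 fold change of the 9 genes was 0.08 with vehicle and -0.16 with MJ041, against medians of -0.002 and 0.02 over all tested genes.

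**Figure D2:**
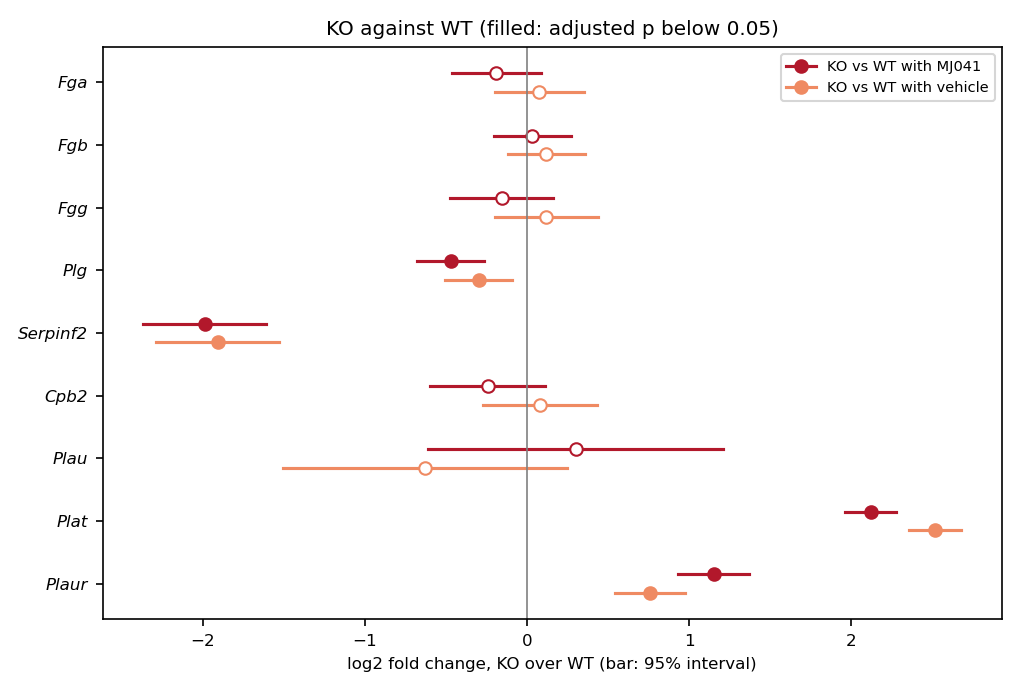
Log2 fold change of each gene in KO over WT cells, with MJ041 (dark red) and with vehicle (orange). Points are edgeR estimates, bars their 95% intervals, and filled points have an adjusted p below 0.05. Plat stands near 2.52 and 2.12 and Serpinf2 near -1.91 and -1.99, while the intervals of Fga, Fgb, Fgg and Cpb2 cross 0.

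Levels of all 3 fibrinogen chains in KO cells stayed close to those in WT cells. Fga, the alpha chain, had 893, 1204 and 1012 CPM in KO cells with vehicle (replicates 1, 2 and 3), against 844, 1099.8 and 1007 CPM in WT cells with vehicle. Fgb, the beta chain, had 1617, 2069 and 1742 CPM in KO cells with vehicle, against 1568, 1723 and 1705 CPM in WT cells with vehicle. Fgg, the gamma chain, had 672, 1012 and 837 CPM in KO cells with vehicle, against 658, 809.7 and 851 CPM in WT cells with vehicle. In each gene the KO and WT libraries overlapped, KO replicate 2 was the highest library of its group, and KO replicate 1 the lowest.

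The log2 fold changes in KO over WT with vehicle were 0.08 for Fga (95% interval -0.20 to 0.35), 0.12 for Fgb (-0.12 to 0.36) and 0.12 for Fgg (-0.20 to 0.44). Their adjusted p values by edgeR were 0.641, 0.381 and 0.512. With MJ041 the log2 fold changes were -0.19 for Fga (-0.47 to 0.09), 0.03 for Fgb (-0.21 to 0.27) and -0.16 for Fgg (-0.47 to 0.16), and none passed (adjusted p = 0.226, 0.818 and 0.389 by edgeR). Here Fga had 1022, 1018 and 984 CPM in KO cells with MJ041, against 1354, 1064 and 1031 CPM in WT cells with MJ041, so its groups did not overlap although the test was not passed.

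Together the 3 chains took 0.372% ± 0.0504 of all counts in KO cells with vehicle and 0.344% ± 0.0291 in WT cells with vehicle (SD, n = 3 each). With MJ041 they took 0.357% ± 0.00497 in KO cells and 0.359% ± 0.0485 in WT cells. Albumin was lower in KO, and for each albumin count there were 0.195 ± 0.0152 fibrinogen counts in KO cells with vehicle, against 0.0764 ± 0.00554 in WT cells with vehicle. With MJ041 the same ratio was 0.187 ± 0.00515 in KO cells and 0.0737 ± 0.00680 in WT cells. Fibrinogen transcripts thus made up a larger part relative to albumin in every KO library.

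The chains assemble in equal number, so the ratios of their counts within a library were compared, which needs no scaling between libraries. Fgb had 2.18 ± 0.200 counts per Fgg count in KO cells with vehicle and 2.17 ± 0.194 in WT cells with vehicle (SD, n = 3). Fga had 1.24 ± 0.0761 counts per Fgg count in KO cells with vehicle and 1.28 ± 0.0876 in WT cells with vehicle. The largest shift between genotypes was in Fga per Fgb, at 0.572 ± 0.0167 in KO and 0.589 ± 0.0499 in WT with vehicle, and at 0.578 ± 0.0150 in KO and 0.675 ± 0.0304 in WT with MJ041. Averaged over the treatments this was a log2 difference of -0.13 in KO (p = 0.035, 2-sided exact permutation of genotype within treatment, 400 arrangements, smallest possible p 0.005). It did not hold after adjustment over the 6 ratio tests made (adjusted p = 0.18). Without WT vehicle replicate 1 the difference was -0.16 and passed (exact permutation, adjusted p = 0.03). The other 5 tests, of genotype or of MJ041, had exact permutation p values of 0.06 to 0.555.

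Cpb2, which encodes the carboxypeptidase that protects fibrin from plasmin, did not pass in either comparison. It had 257, 430.0 and 331 CPM in KO cells with vehicle, against 306, 339 and 318 CPM in WT cells with vehicle, and the KO libraries spanned the WT ones. With MJ041 it had 257, 357 and 318 CPM in KO cells, against 417, 368 and 317 CPM in WT cells. Its log2 fold change in KO over WT was 0.08 with vehicle (-0.27 to 0.43) and -0.24 with MJ041 (-0.60 to 0.11), with adjusted p values of 0.700 and 0.231 by edgeR. Without the filter on low counts the value with MJ041 passed (-0.24, adjusted p = 0.026).

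Plg, the precursor of plasmin, was modestly lower in KO cells. It had 433, 418 and 419.8 CPM in KO cells with vehicle, against 492, 528 and 543 CPM in WT cells with vehicle, and 469, 373 and 402 CPM in KO cells with MJ041, against 662, 536 and 526 CPM in WT cells with MJ041. All 6 KO libraries lay below all 6 WT libraries. The KO level was 1.23-fold lower with vehicle, a log2 fold change of -0.30 ± 0.10 (SE, n = 3 per group; adjusted p = 0.0177 by edgeR). With MJ041 it was 1.39-fold lower, at -0.47 ± 0.10 (adjusted p = 0.00103).

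Serpinf2, the main plasmin inhibitor of plasma, fell most of the 9 genes. It had 28.4, 47.5 and 38.3 CPM in KO cells with vehicle, against 133, 156 and 139.7 CPM in WT cells with vehicle. With MJ041 it had 32.7, 43.9 and 40.2 CPM in KO cells, against 189, 138 and 137 CPM in WT cells. The highest KO library thus held well under the level of the lowest WT library. The KO level was 3.76-fold lower with vehicle, a log2 fold change of -1.91 ± 0.18 (SE, n = 3 per group; adjusted p = 1.6e-06 by edgeR). With MJ041 it was 3.97-fold lower, at -1.99 ± 0.18 (adjusted p = 1.1e-06). Within KO vehicle libraries Serpinf2 was lowest in replicate 1 and highest in replicate 2, the order also seen for Fga, Fgb, Fgg and Cpb2.

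Plat, encoding tissue-type plasminogen activator, rose most. It had 270.0, 219.8 and 258 CPM in KO cells with vehicle, against 44.1, 41.8 and 44.3 CPM in WT cells with vehicle. With MJ041 it had 222, 238 and 230.2 CPM in KO cells, against 51.1, 54.6 and 53.1 CPM in WT cells. Genotypes were far apart and the WT libraries with vehicle were tightly grouped. The KO level was 5.74-fold higher with vehicle, a log2 fold change of 2.52 ± 0.07 (SE, n = 3 per group; adjusted p = 5.4e-11 by edgeR), and 4.35-fold higher with MJ041, at 2.12 ± 0.07 (adjusted p = 2.1e-10).

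Plaur, the urokinase receptor gene, also rose. It had 149, 166 and 148 CPM in KO cells with vehicle, against 100.5, 87.5 and 85.4 CPM in WT cells with vehicle. With MJ041 it had 143, 192 and 161 CPM in KO cells, against 70.2, 72.7 and 79.7 CPM in WT cells. No KO library overlapped a WT library. The KO level was 1.69-fold higher with vehicle, a log2 fold change of 0.76 ± 0.10 (SE, n = 3 per group; adjusted p = 3.5e-05 by edgeR), and 2.23-fold higher with MJ041, at 1.15 ± 0.10 (adjusted p = 1.1e-06).

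Plau, the gene of urokinase itself, had the lowest group mean of the 9 genes per length of transcript in every group and varied widely between WT libraries. It had 8.51, 10.9 and 9.26 CPM in KO cells with vehicle, against 13.1, 8.12 and 23.0 CPM in WT cells with vehicle. With MJ041 it had 7.66, 11.5 and 9.99 CPM in KO cells, against 3.77, 6.03 and 13.8 CPM in WT cells. KO libraries were close to each other and lay within the wide WT range. The log2 fold change in KO over WT was -0.63 with vehicle (-1.50 to 0.25, adjusted p = 0.211 by edgeR) and 0.30 with MJ041 (-0.61 to 1.21, adjusted p = 0.572). Without the filter on low counts the vehicle value passed (-0.61, adjusted p = 0.00858). Without MJ041-treated WT replicate 3 the comparison with MJ041 gave 0.98 (adjusted p = 0.0456), and without MJ041-treated WT replicate 1 it gave -0.04.

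**Figure D3:**
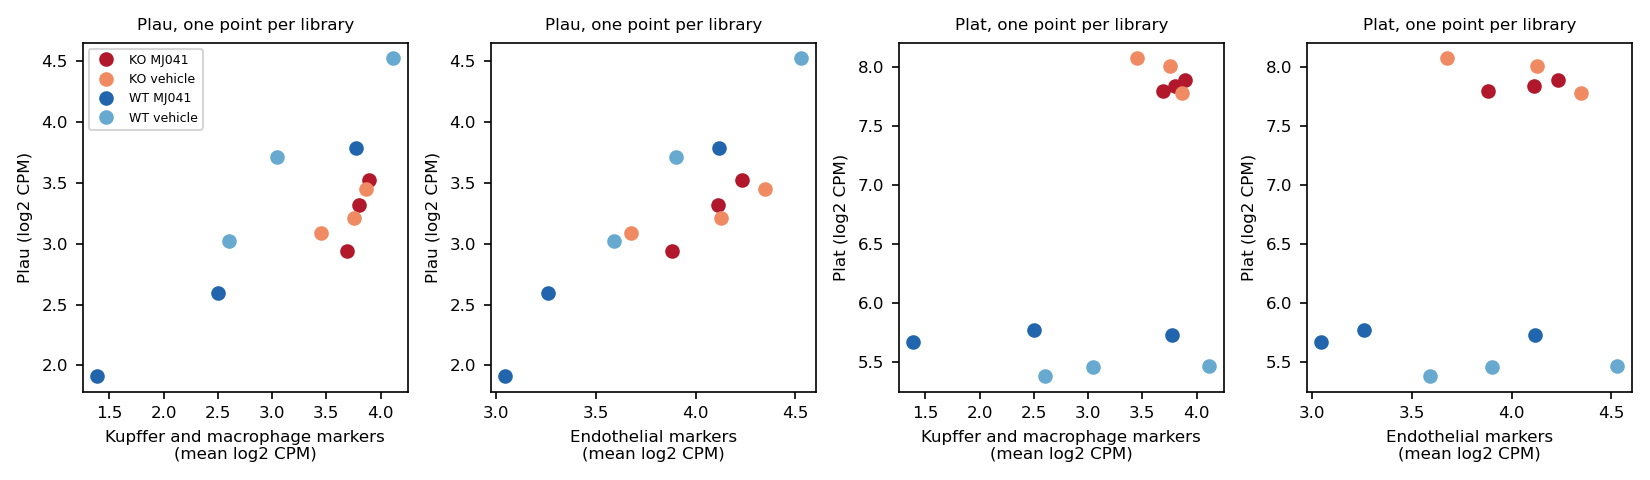
Plau (left pair) and Plat (right pair) in log2 CPM against the mean log2 CPM of Kupffer and macrophage markers or of endothelial markers, with 1 point per library coloured by group. WT points of Plau run upward with both marker lists, from WT MJ041 replicate 1 at the lower left to WT vehicle replicate 3 at the upper right, whereas Plat is higher in every KO library. KO libraries lie at Kupffer levels of 3.45 to 3.89, and only 1 WT library lies within that range.

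Macrophages and endothelial cells can also make these activators, so the levels of their markers were set beside them. All 12 Kupffer and macrophage markers and all 11 endothelial markers were tested, and no Kupffer marker was at 0 in any library. The summed Kupffer and macrophage markers ranged from 475 to 504 CPM in KO cells with MJ041 and from 462 to 516 CPM in KO cells with vehicle. The WT ranges were 186 to 362 CPM with MJ041 and 244 to 494 CPM with vehicle. Mpeg1 was the largest part of the sum in KO cells with vehicle, at 281 CPM, against 131 CPM in WT cells with vehicle. Cd68 went the other way, at 69.1 CPM in KO and 109 CPM in WT with vehicle. Of the 12 markers 2 passed as higher and 1 as lower in KO with vehicle, and 3 and 1 with MJ041. These were 25% and 33.3% of the list, beside 54.5% and 54.4% of all tested genes. The summed endothelial markers ranged from 276 to 324 CPM in KO cells with MJ041, from 243 to 369.5 CPM in KO cells with vehicle, from 171 to 296 CPM in WT cells with MJ041 and from 258 to 397 CPM in WT cells with vehicle. In WT, Plau was lowest where the Kupffer list was lowest, at a mean log2 CPM of 1.39 in MJ041 replicate 1, and highest where it was highest, at 4.11 in vehicle replicate 3. The mean endothelial level of those libraries was 3.05 and 4.53.

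With the mean level of the Kupffer, endothelial and stellate markers as a covariate, Plau was lower in KO at -0.80 with vehicle (adjusted p = 0.000306 by edgeR) and at -0.60 with MJ041 (adjusted p = 0.0135). The direction of the MJ041 value is thus opposite to that without the covariate. Plat kept 2.52 with vehicle and 2.12 with MJ041 under the covariate, and Plaur kept 0.73 and 1.06. Cholangiocyte markers were not part of the covariate. Some markers in the covariate themselves passed in KO against WT with vehicle. They were 25% of Kupffer, 18.2% of endothelial and 75% of stellate markers tested, beside 54.5% of all tested genes. The covariate thus cannot separate the amount of other cells from genotype. The part of other cells in the Plau values was not tested.

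The next question was whether MJ041 changed these genes, and whether its response differed between genotypes. None of the 9 genes passed with MJ041 in KO cells, in WT cells, or in the interaction, the log2 response to MJ041 of KO cells less that of WT cells. Among all tested genes 2.21% passed in WT, and 0% passed in KO and in the interaction by edgeR. Without adjustment, 3219 genes had p below 0.05 in WT, 414 in KO and 1980 in the interaction. DESeq2 called 906 genes in WT, 0 in KO and 227 in the interaction.

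**Figure D4:**
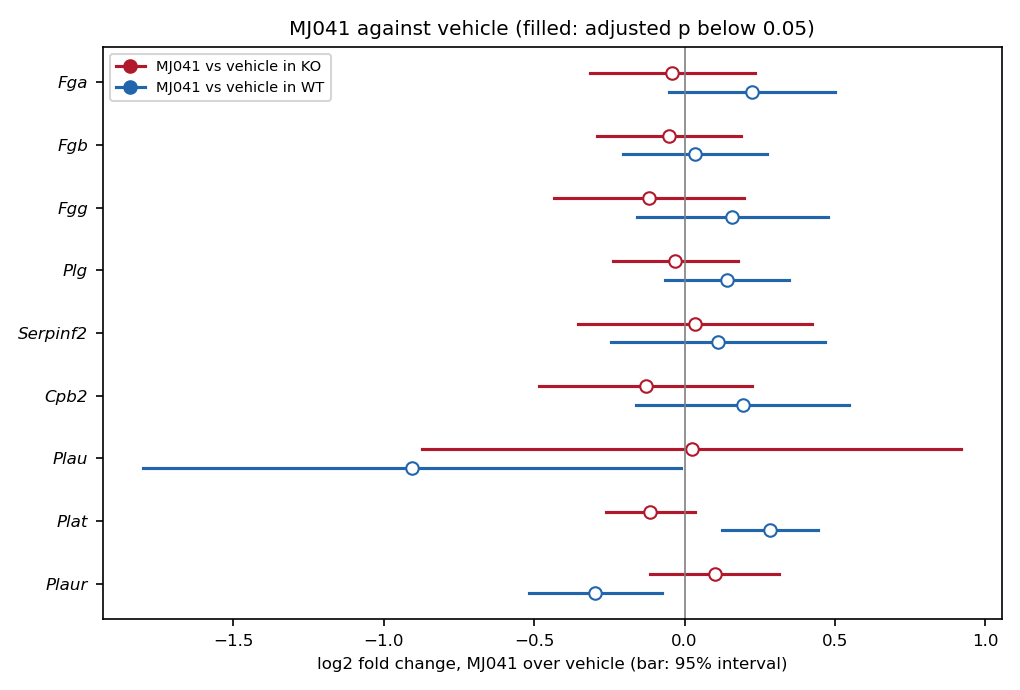
Log2 fold change of each gene with MJ041 over vehicle, in KO cells (red) and in WT cells (blue). Points are edgeR estimates and bars their 95% intervals, and open points did not pass. In WT cells the intervals of Plat, Plaur and Plau exclude 0 before correction for the number of genes, and in KO cells all 9 intervals cross 0.

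Plat came closest in WT cells. Its libraries with MJ041, at 51.1 to 54.6 CPM, all lay above those with vehicle, at 41.8 to 44.3 CPM. The log2 fold change there was 0.29 ± 0.07 (SE, n = 3 per group; adjusted p = 0.0622 by edgeR). In KO cells it was -0.11 ± 0.07 with overlapping libraries, and the interaction was -0.40 ± 0.10 (adjusted p = 0.146). Without vehicle-treated KO replicate 2 or without MJ041-treated WT replicate 3 the WT response passed (adjusted p = 0.0493 and 0.0457 by edgeR). With the latter left out, the treated WT libraries that remain are those low in markers of other cells. With the marker covariate the WT response did not pass (0.28, adjusted p = 0.122 by edgeR). The WT response passed in 4 of 19 alternatives and did not pass in 15. DESeq2 called it too, at 0.28 (adjusted p = 0.0211), and its adjusted p over all alternatives ranged from 0.00586 to 0.989. DESeq2 also called the Plat interaction, at -0.40 (adjusted p = 0.0326).

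Plaur went the other way in WT cells, with 70.2 to 79.7 CPM with MJ041, all below the 85.4 to 100.5 CPM with vehicle. The log2 fold change was -0.30 ± 0.10 (adjusted p = 0.123 by edgeR), against 0.10 ± 0.10 in KO cells. Plau was lower by the wide margin of -0.90 ± 0.41 in WT cells (adjusted p = 0.227), with overlapping libraries. Without MJ041-treated WT replicate 3 the Plau value was -1.59 and passed, and with the marker covariate it was -0.33 (adjusted p = 0.339). In KO cells Plau stood at 0.02 ± 0.41.

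None of the hepatocyte-made members passed with MJ041. In WT cells the log2 fold changes were 0.22 for Fga, 0.03 for Fgb, 0.16 for Fgg, 0.14 for Plg, 0.11 for Serpinf2 and 0.19 for Cpb2, with adjusted p values from 0.334 to 0.890 by edgeR. WT replicate 1 with MJ041 was the highest WT library for all 6 of these genes, and the MJ041 and vehicle libraries overlapped in each. In KO cells the same 6 genes lay between -0.13 and 0.03. The widest of their 12 intervals was that of Serpinf2 in KO cells, from -0.35 to 0.42.

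Other genes of fibrinolysis were read from a list of 22 partners, of which 18 were tested. In KO cells with vehicle 9 fell and 5 rose, and with MJ041 7 fell and 6 rose, with medians of -0.20 and -0.10. Those that passed were 77.8% and 72.2% of the list, where 54.5% and 54.4% of all tested genes passed. The 4 strongest falls with vehicle were liver plasma proteins. Hrg, which encodes the plasminogen-binding histidine-rich glycoprotein, had 4.59 CPM in KO and 188 CPM in WT (-5.35). F12, the contact-phase factor, changed by -5.05, F13b, the carrier subunit of the fibrin cross-linking enzyme, by -4.94, and Vtn, the adhesive plasma protein vitronectin, by -3.18. The largest rise of the list with vehicle was that of Lrp1, the receptor that clears plasminogen activators, at 523 CPM in KO and 170 CPM in WT (1.62). Of the annexin receptor complex of plasminogen, S100a10 was lower (-0.61) and Anxa2 did not pass (0.12, interval -0.07 to 0.30). They were not tested against each other.

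With MJ041, the partners with the smallest adjusted p in KO against WT were again F12 (-5.32), Hrg (-5.73) and F13b (-4.86), with Vtn (-3.23). With MJ041 over vehicle in WT cells 1 of the 18 passed (5.56%, beside 2.21% of all tested genes). This was Serpinb2, an inhibitor of urokinase, which had 3.41 CPM with MJ041 and 10.7 CPM with vehicle (-1.64, adjusted p = 0.0452 by edgeR). In KO cells none of the 18 passed. Serpinb2 had 36, 30 and 104 reads counted with MJ041, against 226, 136 and 199 with vehicle, and replicates 1 and 2 with MJ041 are the WT libraries low in markers of other cells. The Serpinb2 call was lost with the marker covariate (-1.36, adjusted p = 0.0671) and with both of those libraries left out (-0.79, adjusted p = 0.997). It was also lost with only the WT groups in the fit and on leaving out any single library other than WT MJ041 replicate 3 or WT vehicle replicate 2, and over 19 alternatives its adjusted p ranged from 2.79e-08 to 0.997. In KO cells the partners with the highest levels stood at -0.08 (Eno1) and 0.03 (Anxa2) with MJ041.

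**Figure D5:**
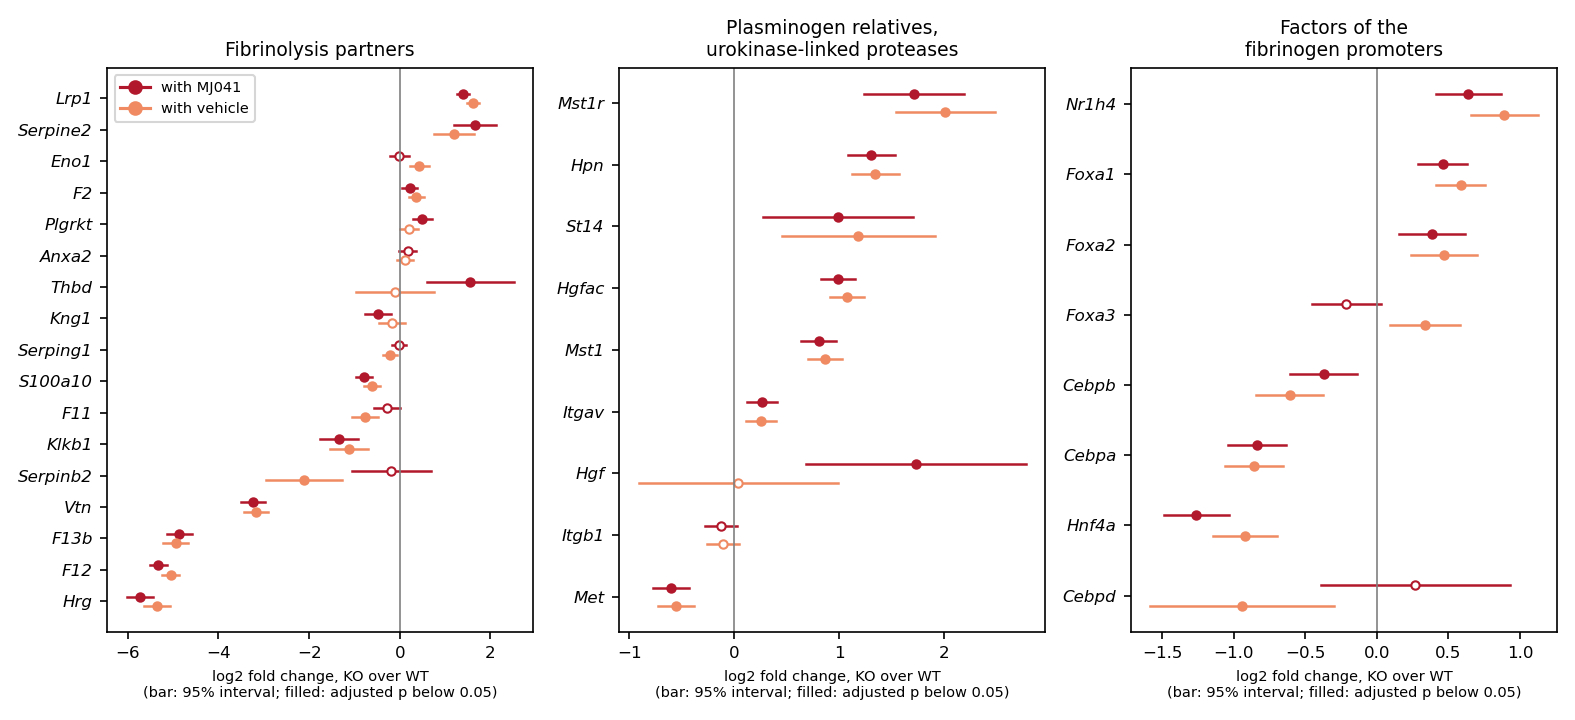
Log2 fold change in KO over WT, with MJ041 (dark red) and with vehicle (orange), for members of 3 gene lists, sorted by the vehicle value. Bars are 95% intervals and filled points have an adjusted p below 0.05. Hrg, F12, F13b and Vtn lie at -3.18 or lower, while Lrp1, Hpn and Mst1r lie at 1.31 or higher in both comparisons.

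Relatives of plasminogen and proteases linked to urokinase formed a list of 9 genes, all tested. In KO cells 6 rose and 1 fell with vehicle, and 7 rose and 1 fell with MJ041, with medians of 0.87 and 0.99. The share that passed was 77.8% with vehicle and 88.9% with MJ041, beside 54.5% and 54.4% of all tested genes. Mst1, a plasminogen-like growth factor without protease activity, had 125 CPM in KO and 68.8 CPM in WT with vehicle (0.87), opposite in direction to Plg. Hgfac, the activator protease of hepatocyte growth factor, changed by 1.07, and Hpn, the hepatocyte surface protease hepsin, by 1.34. Mst1r, the receptor of Mst1, changed by 2.01. Met, the receptor of hepatocyte growth factor, was lower at -0.56. With MJ041 Hgfac (0.99), Hpn (1.31), Mst1 (0.81) and Mst1r (1.71) had the smallest adjusted p values. None of the 9 passed with MJ041 over vehicle in either genotype. The pair with the highest levels, the integrin genes Itgb1 and Itgav, stood at -0.01 and -0.12 in KO cells and at 0.01 and -0.13 in WT cells.

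Of 6 proteins with a fibrinogen-like domain or fibrinogen-binding role, 3 rose and 2 fell in KO cells with vehicle, or 83.3% of the list beside 54.5% of all tested genes. Fgl1, a fibrinogen-like hepatokine, had 612 CPM in KO and 351 CPM in WT (0.80), and Fn1, the fibronectin that joins the fibrin clot, had 2663 CPM in KO and 984 CPM in WT (1.44). Angptl4, an inhibitor of lipoprotein lipase, changed by -0.67 and Angptl6 by 0.99. With MJ041 2 rose and 2 fell (66.7%, beside 54.4% of all tested genes), with Fgl1 at 1.04, Fn1 at 0.72 and Angptl4 at -0.26. With MJ041 over vehicle in WT cells 1 of the 6 passed as higher (16.7%, beside 2.21% of all tested genes). This was Fn1, at 0.56 (adjusted p = 0.0446 by edgeR). That call was lost with the marker covariate (0.47, adjusted p = 0.113), with both WT libraries that were low in those markers left out (0.29, adjusted p = 0.997) and with only the WT groups in the fit (adjusted p = 0.178). It was also lost on leaving out any single library other than WT MJ041 replicate 3 or WT vehicle replicate 2, and its adjusted p over 19 alternatives ranged from 8.48e-08 to 0.997.

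The signalling chain from interleukin-6 raises fibrinogen in the acute phase. Of its 11 tested genes 8 fell and 0 rose with vehicle, and 6 fell and 1 rose with MJ041, with medians of -0.44 and -0.24. In all 72.7% and 63.6% of the list passed, beside 54.5% and 54.4% of all tested genes, of which 26.9% and 27.6% passed as lower. Il6ra, the receptor, had 27.0 CPM in KO and 46.2 CPM in WT with vehicle (-0.77), and Stat3, the transcription factor it activates, had 194 CPM in KO and 263 CPM in WT (-0.44). Lifr, a related receptor, changed by -1.10 and the kinase gene Jak1 by -0.37. The same 4 genes had the smallest adjusted p values with MJ041, at -1.11 for Lifr, -0.82 for Il6ra, -0.51 for Stat3 and -0.53 for Jak1. With MJ041 over vehicle in WT cells 2 of the 11 passed as lower (18.2%, beside 2.21% of all tested genes). They were Il6 (adjusted p = 0.0317 by edgeR) and Socs3, the feedback inhibitor of this pathway (-0.87, adjusted p = 0.0417). Il6 had counts of only 0, 1 and 8 with MJ041, against 41, 23 and 53 with vehicle, and the 0 and the 1 came from the WT libraries low in markers of other cells. With the marker covariate the adjusted p was 0.0514 for Il6 and 0.0762 for Socs3, and with both of those libraries left out it was 0.981 for each, so neither call held. Both calls were also lost with only the WT groups in the fit (0.178 and 0.179). Socs3 was lost on leaving out any single library other than WT MJ041 replicate 3 or WT vehicle replicate 2. Il6 was lost without WT MJ041 replicate 1 or 2, WT vehicle replicate 1 or 3, KO MJ041 replicate 3, or KO vehicle replicate 1 or 3. Over 19 alternatives the adjusted p ranged from 2.16e-09 to 0.981 for Il6 and from 7.06e-07 to 0.981 for Socs3.

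Transcription factors known from fibrinogen promoters moved in both directions. All 10 tested genes passed in KO with vehicle, 5 as higher and 5 as lower, and 4 and 4 with MJ041, with medians of -0.14 and 0.03. These were 100% and 80% of the list, beside 54.5% and 54.4% of all tested genes. Cebpa, of the C/EBP family, changed by -0.86, and Hnf4a by -0.92. With MJ041 the values were -0.84 for Cebpa and -1.26 for Hnf4a. No member of this list passed with MJ041 over vehicle in either genotype, and Hnf4a stood at 0.05 in KO cells and 0.39 in WT cells (adjusted p = 0.0622 by edgeR).

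Position on the chromosome was compared next, by the nearest tested gene on each side in the RefSeq gene table. Fgg, Fga and Fgb lie side by side on chromosome 3, and Plrg1, the neighbour beyond Fgb, stood at 0.01 in KO over WT with vehicle and -0.07 with MJ041. Rbm46, beyond Fgg, fell at -1.74 with vehicle and -2.68 with MJ041. Serpinf2 on chromosome 11 lies next to its paralog Serpinf1, which encodes a secreted serpin without inhibitor activity. Serpinf1 was also lower in KO, at -2.82 with vehicle and -3.09 with MJ041, and Wdr81 on the other side changed by -0.55 and -0.59. Plat on chromosome 8 lies between Ikbkb (0.29 and 0.27) and Ap3m2 (-0.58 and -0.03), whose differences were far smaller than that of Plat. Plaur on chromosome 7 lies between Smg9 (-0.79 and -0.86) and Cadm4 (0.85 and 0.30).

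Genes with the most similar pattern were found by the root mean square difference of log2 CPM, each gene centred on its own mean, over the 12 libraries, among 10237 genes averaging 5 CPM or more. Serpinf2 was closest to Agxt (0.11) and Rdh7 (0.125), which encode liver enzymes of glyoxylate and retinol metabolism. Plat was closest to Plxna3 (0.12) and Itih5 (0.15), Plaur to Ccnd3 (0.08) and Timeless (0.09), and Plg to Klf11 (0.05) and Dpyd (0.06). Plau was closest to Rgl1 (0.11) and to Itgb2 (0.14), an integrin subunit of leukocytes. Members were left out of this ranking. Outside the 9 genes, Fga was closest to Acad10 (0.07), Fgb to Vcl (0.07), Fgg to Ldha (0.10) and Cpb2 to Hsd11b1 (0.11). Among the 9 genes themselves, Fga and Fgg differed by 0.07, Fga and Fgb by 0.11, and Fgg and Cpb2 by 0.14. These values describe the pattern over groups that differ strongly by genotype, and the libraries share their scaling.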

How the data were processed

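The data are RNA-seq libraries of cultured primary mouse hepatocytes. The deposited table holds raw counts per Ensembl gene, 1 column per library, which the authors left without normalization. Per the labels' protocols, total RNA went into a stranded Illumina kit and was read on an Element AVITI. Build mm39, featureCounts, STAR 2.7.10b, Trimmomatic 0.34, DESeq2 and FastQC are listed in the submitters' processing notes; strand and multimapping settings are not given in the sources used here.

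Symbols were matched for 52081 of 55414 identifiers. After filterByExpr (minimum count 10) and TMM scaling, edgeR's quasi-likelihood test was run on all 12 libraries and all genes together, with the 4 groups as terms (R 4.3.3, edgeR 4.0.16, limma 3.58.1). The code was also run on simulated counts drawn from edgeR's own estimates of spread, with far fewer changed genes than here. That run cannot show how well the scaling and the error rate hold in these data. Each SE was taken as the size of the log2 difference over the root of its F statistic, and intervals are at the 95% level. DESeq2 1.42.0, RLE scaling, no filter, a replicate block, fits of the compared groups alone, a marker covariate and left-out libraries were the alternatives. Replicates of a group differed by a chi-square per degree of freedom of 4.39 to 14.6, more than counting noise gives. Within a group none is thus the same library deposited again, and libraries of different groups were not compared this way. Exon lengths came from GENCODE M21. The genes described, the lists and the tests were chosen with earlier results of these data known. List genes were named by smallest adjusted p, at most 4 per list and comparison; others named were chosen after their values were seen. Results of some genes of these lists are not reported here.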

Additional observations from a re-analysis of the deposited data

How the results depend on the processing

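The 8 called differences of the 9 genes (4 per genotype comparison) kept direction and call in all 152 values over 19 alternatives each. Of 694 values for the 37 differences that were not called, 16 passed the threshold, 1 of them with its sign turned, and 38 changed sign, in 18 differences. The cause was not tested.

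For MJ041 in WT cells the count of called genes, 329 in the fit reported, was 1667 without the filter, 906 by DESeq2, 1 with the marker covariate, 0 with only the WT groups, 0 with MJ041-treated WT replicates 1 and 2 left out together (1 treated library then remains, assumed to vary like the other groups), and 0 to 2059 over single left-out libraries. It was 0 without WT vehicle replicate 1, WT MJ041 replicate 2, KO vehicle replicate 1 or 3, or KO MJ041 replicate 3, and 2059 without WT MJ041 replicate 3. Members called were 3 without the filter (Plat, Plaur, Plau), 1 by DESeq2 (Plat) and 0 to 2 over left-out libraries. In KO cells 15 genes were called without the filter. For the interaction 886 genes and 3 members (Plat, Plaur, Plau) were called without the filter, 227 genes and 1 member (Plat) by DESeq2, and 0 to 852 genes over left-out libraries.

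A replicate block gave 649 genes for MJ041 in WT and changed no call on a member. Same-numbered libraries correlated over 0.1 in 7 of 18 pairs (-0.10 to 0.50). The same number was the best match in 16 of 36 library-to-group comparisons, so numbers were not taken as pairs over all groups. Between MJ041 and vehicle libraries of the same number the correlation was 0.35, 0.46 and 0.04 in KO cells (replicates 1, 2 and 3). The values in WT cells were -0.01, 0.20 and 0.50. The block shared each number between genotypes, so pairing within a genotype was not tested.

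Signs turned as follows, in log2. With the marker covariate Plau in KO over WT with MJ041 was -0.60, Fgb with MJ041 in WT -0.0134, Plau with MJ041 in KO -0.13 and the Serpinf2 interaction 0.00791. With MJ041-treated WT replicates 1 and 2, the WT libraries lowest in stellate markers, both left out, Plau in KO over WT with MJ041 was -0.51, and with MJ041 in WT Fgb was -0.0615, Serpinf2 -0.0638 and Cpb2 -0.0169. In that fit the interactions of Fgb and Serpinf2 were 0.00693 and 0.0958. Over single left-out libraries KO over WT with vehicle ranged from -0.0451 to 0.136 for Fga, -0.0344 to 0.223 for Fgg and -0.124 to 0.211 for Cpb2, and KO over WT with MJ041 from -0.0718 to 0.166 for Fgb and -0.0362 to 0.982 for Plau. With MJ041 in WT Fgb ranged from -0.105 to 0.0949 and Serpinf2 from -0.0588 to 0.191. With MJ041 in KO the ranges were -0.144 to 0.0813 for Fga, -0.134 to 0.0558 for Fgb, -0.263 to 0.0375 for Fgg, -0.128 to 0.0314 for Plg, -0.144 to 0.225 for Serpinf2, -0.300 to 0.0779 for Cpb2, -0.124 to 0.167 for Plau and -0.0294 to 0.192 for Plaur. The interaction ranged from -0.153 to 0.0504 for Fgb and -0.229 to 0.113 for Serpinf2. The log2 difference of the Fga to Fgb count ratio in KO over WT kept its sign, from -0.164 to -0.103 over single left-out libraries. Counts of 61 to 416 reads for Plau limit its precision. Intervals cover the spread between libraries.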
